A study of Homo sapiens with 8 samples.

Results

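Neuroendocrine prostate cancer is a form of the disease in which tumour cells carry the secretory apparatus of nerve-like endocrine cells, and it is recognised by a panel of marker genes. The panel described here holds 9 genes, CHGA, CHGB, SCG2, SCG3, SYP, NCAM1, INSM1, NTS and UCHL1, and every probe set that the platform annotation gives to 1 of these genes alone was kept, which came to 25 probe sets of 49293, where 18132 genes in all have a probe set of their own. They were measured in DU145, an established prostate cancer line derived from a brain metastasis, with 4 arrays of Aldrin-exposed cells and 4 arrays of Non-exposed cells. Aldrin is an organochlorine insecticide and endocrine disruptor, given at 1 µM for 50 days in 0.01% DMSO with cultures diluted every 3 days. The Non-exposed cells are labelled as having had no treatment, and whether they received DMSO is not given in the sources used here. All 8 arrays come from the same cell line, so the replicates are not different tumours, and nothing states that they were separate cultures. The p-values therefore measure the spread between these samples, which may be technical.

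Granins, the family of CHGA, CHGB, SCG2 and SCG3, are acidic proteins that pack peptide hormones into dense-core secretory granules. Synaptophysin (SYP) sits in the membrane of small secretory vesicles, NCAM1 (CD56) is a cell adhesion molecule of neurons and natural killer cells, INSM1 is a zinc finger transcription factor of developing neuroendocrine cells, NTS encodes the peptide neurotensin, and UCHL1 (PGP9.5) is a ubiquitin hydrolase abundant in neurons. In tissues that are not neural, many such genes are kept silent by REST, which binds the RE1 element and recruits a co-repressor complex.

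The promoters of 5 members, UCHL1, CHGA, SYP, NTS and SCG3, were matched by gene ID in a RefSeq table on GRCh38.p14, and CHGB, NCAM1, INSM1 and SCG2 were not matched. The 100 bases before the transcription start are shown for UCHL1, the member of highest level in these arrays, for NTS, the lowest, and for CHGA and SYP, the markers most used in pathology. Capitals mark a TATA-like run (TATANA), the SP1 box (GGGCGG) and the cAMP response element, whose letters are TGACGTCA, each searched on both strands.
UCHL1, chr4:41256828-41256927, plus strand: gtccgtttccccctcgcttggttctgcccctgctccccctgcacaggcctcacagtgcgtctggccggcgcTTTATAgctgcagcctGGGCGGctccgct
CHGA, chr14:92923050-92923149, plus strand: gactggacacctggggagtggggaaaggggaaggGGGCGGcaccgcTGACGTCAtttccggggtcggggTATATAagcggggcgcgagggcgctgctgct
SYP, chrX:49200194-49200293, minus strand: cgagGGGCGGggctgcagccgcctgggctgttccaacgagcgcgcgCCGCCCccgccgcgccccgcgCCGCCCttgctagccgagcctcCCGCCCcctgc
NTS, chr12:85874195-85874294, plus strand: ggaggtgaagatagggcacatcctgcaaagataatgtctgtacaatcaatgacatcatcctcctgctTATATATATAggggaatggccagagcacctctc
The CHGA window lies within the annotated span of the gene, at the start that the table uses. The letters TATANA lay 29 to 33 bases before the start in UCHL1 (on the opposite strand), CHGA and NTS and were found in 19.7% of 27305 promoters of 300 bases. The cAMP response element of CHGA began 54 bases before the start, and 1.98% of promoters held these letters. The SP1 box was in 4 of the 5 members and in 44.6% of promoters. NTS stood apart in base composition, with 2 CpG dinucleotides in its 300 bases, against 25 in UCHL1, 24 in CHGA, 35 in SYP, 18 in SCG3 and a median of 14 over all promoters. In SCG3, both parts of RE1, TTCAGCACC and GGACAGC, lay 8 bases apart on the sense strand within the transcribed part of the window, and the stretch is shown because this arrangement was found in 3 of the 27305 promoters.
SCG3, chr15:51681511-51681534, plus strand: TTCAGCACCcacagggcGGACAGC
The spacing was searched after the parts had been seen, and a match of letters is not evidence of binding.

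Within the panel of 9 genes, UCHL1 was the one with a signal above the array median on all 8 arrays in DU145, and every probe set of the other 8 genes had a mean below the array median. Levels are RMA values on a log2 scale as deposited, and the median of each array lay between 8.05 and 8.10. Probe sets differ in how strongly they bind, so a percentile within the array describes the position of a probe set and not a number of transcripts. Of the 25 probe sets, the 4 of UCHL1 were above the array median on all 8 arrays, 20 were below it on all 8, and 1 of SYP was above it on some. Background control probe sets, which match no human transcript and hold 3 to 25 G or C in their probes, read 3.56 to 11.85 over the 8 arrays. All 4 UCHL1 probe sets exceeded every background control on every array, and none of the other 21 probe sets did so on any array. This bar is high, as the control with 25 G or C read 11.11 to 11.85. The highest REST probe set, at percentile 85.1, had a mean of 10.90, below that control. The share of all probe sets that exceeded every control was not counted. Probe sequences were not used, so the background of a given marker is not known and no marker is called absent.

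**Figure D1:**
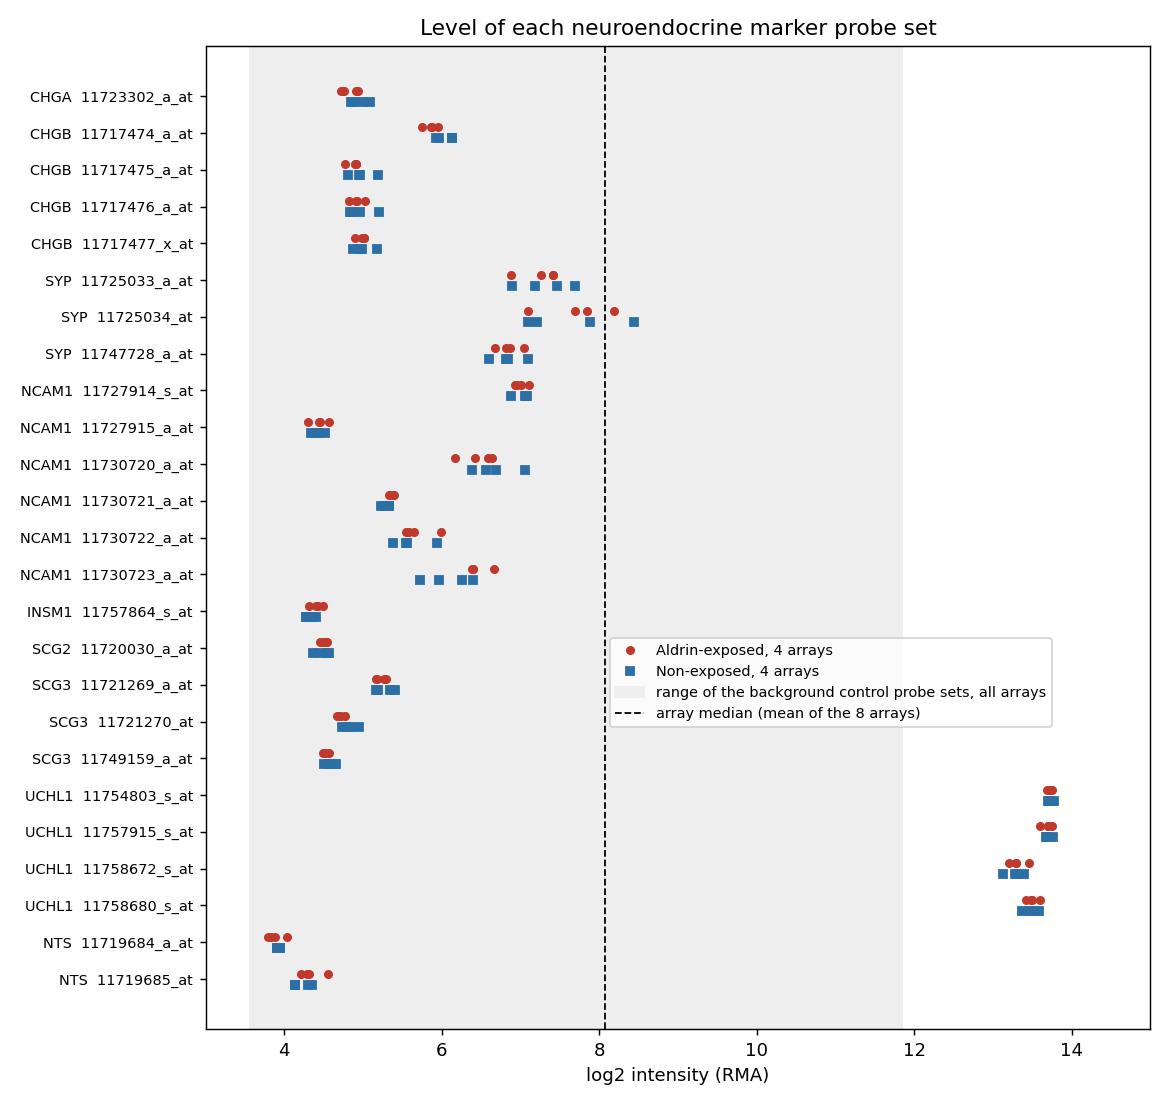
Log2 intensity (x axis) of each of the 25 probe sets (rows), with 4 Aldrin-exposed arrays as red circles above 4 Non-exposed arrays as blue squares, the array median as a dashed line and the range of the background controls (3.56 to 11.85) in grey. The 4 UCHL1 probe sets lie to the right of the grey range, and all others lie within it.

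UCHL1 (chr4:41256928-41268455) removes ubiquitin from short adducts and is carried by 4 probe sets. The brightest, 11754803_s_at, read 13.74, 13.68, 13.72 and 13.72 in Aldrin-exposed cells, against 13.73, 13.78, 13.70 and 13.71 in Non-exposed cells. The dimmest, 11758672_s_at, read 13.21, 13.29, 13.46 and 13.29 in Aldrin-exposed cells, against 13.28, 13.30, 13.12 and 13.40 in Non-exposed cells. No array stood apart in both probe sets, and the conditions overlapped in each. Over the 4 probe sets the mean percentile ran from 99.2 to 99.8, and 387 of 49293 probe sets (0.785%) had a mean at least as high as the lowest of them. The log2 fold changes were -0.012, -0.018, 0.037 and 0.017, with 95% intervals (limma) that together spanned -0.17 to 0.24. The highest value of any probe set on an array was 14.56 to 14.76, and whether the UCHL1 signal was compressed near that top was not tested. By the maker's naming, the ending _s_at marks probes that several transcripts share, and what other transcripts add to the UCHL1 signal was not tested.

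The granins, which make up the matrix of secretory granules, read low in both conditions. CHGA (chr14:92922664-92935285), the serum marker chromogranin A, read 4.92, 4.76, 4.72 and 4.93 in Aldrin-exposed cells, against 5.00, 4.89, 5.09 and 4.85 in Non-exposed cells. Its mean lay at -3.18 log2 units from the array median, at percentile 13.3. The ranges of the conditions overlapped, with a log2 fold change of -0.13 (standard error 0.088, 95% interval -0.32 to 0.073, p = 0.2 by the exact permutation test), and the GC background covariate gave -0.063. CHGB (chr20:5911510-5925353), chromogranin B, had its highest probe set, 11717474_a_at, at 5.95, 5.88, 5.75 and 5.86 in Aldrin-exposed cells, against 6.13, 6.13, 5.96 and 5.93 in Non-exposed cells. The lowest Non-exposed array fell just under the highest Aldrin-exposed one. Its log2 fold change was -0.18 (95% interval -0.37 to 0.0092, exact permutation p = 0.0571), and the other 3 CHGB probe sets gave -0.11, -0.043 and -0.023.

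SCG2 (chr2:223596940-223602361), the precursor of secretoneurin, read 4.46, 4.51, 4.54 and 4.50 in Aldrin-exposed cells, against 4.56, 4.46, 4.54 and 4.36 in Non-exposed cells. The Aldrin-exposed arrays lay inside the range of the Non-exposed arrays (log2 fold change 0.020, 95% interval -0.15 to 0.19). SCG3 (chr15:51681503-51721026), which ties granins to the granule membrane, was measured by 3 probe sets at percentiles 8.38 to 18.0. Its probe set 11721270_at read 4.73, 4.77, 4.67 and 4.68 in Aldrin-exposed cells, against 4.81, 4.94, 4.74 and 4.84 in Non-exposed cells. One Non-exposed array fell among the Aldrin-exposed ones, and the log2 fold change was -0.12 (95% interval -0.29 to 0.044, exact permutation p = 0.0571). The other SCG3 probe sets had -0.048 and -0.064, so all 3 of SCG3, all 4 of CHGB and the 1 of CHGA had the lower mean in Aldrin-exposed cells, while none passed the test. SCG2 had the higher mean, and 51.8% of all probe sets had the lower one. Without Non-exposed replicate 3, CHGB 11717476_a_at turned to 0.036 and CHGB 11717477_x_at to 0.038. Probe sets of 1 gene can share probes and are not independent.

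SYP (chrX:49187815-49200193), the vesicle membrane protein synaptophysin, stood nearest to the array median and varied most between arrays. Its probe set 11725034_at read 7.70, 8.19, 7.10 and 7.84 in Aldrin-exposed cells, against 7.88, 7.09, 8.44 and 7.20 in Non-exposed cells. Each condition thus held arrays near 7.1 and arrays above 7.8, and the span of 1.35 over 8 arrays was the widest of the 25 probe sets. The mean was 7.71 ± 0.46 in Aldrin-exposed cells, against 7.66 ± 0.63 in Non-exposed cells (SD, n = 4), with a 95% interval for the difference from -0.67 to 0.77. A further probe set, 11725033_a_at, read 7.26, 7.42, 6.88 and 7.41 in Aldrin-exposed cells, against 7.46, 6.89, 7.69 and 7.18 in Non-exposed cells, with the highest and the lowest of the Aldrin-exposed and the highest and lowest of the Non-exposed arrays being the same arrays as before. The third, 11747728_a_at, spanned only 0.495, from 6.60 to 7.10.

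The 3 genes outside the panel that followed 11725034_at most closely over the 8 arrays were RNF151 (Pearson's r = 0.988), TNFAIP8L3 (r = 0.987) and TPM2 (r = 0.986), each at 1 probe set. These are the highest of all probe sets with 1 gene over only 8 arrays and are given as a description. RNA amount, labelling and array position are not given in the sources used here. The signal of GC-rich over GC-poor background controls moved with this probe set on 7 of the 8 arrays. On the third Aldrin-exposed array it was 5.65 beside a SYP level of 7.10, on Non-exposed replicates 2 and 4 it was 5.76 and 5.90 beside 7.09 and 7.20, and on the third Non-exposed array 6.37 beside 8.44. Aldrin-exposed replicates 1 and 4 and Non-exposed replicate 1 lay between these in both measures, and the second Aldrin-exposed array stood apart, with the lowest background signal, 5.59, beside a SYP level of 8.19. With the background signal as a covariate the log2 fold change of 11725034_at was 0.24, against 0.050 without it, and its part in the variation between arrays was not tested further.

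NCAM1 (chr11:112961420-113278436), the adhesion molecule that carries polysialic acid, had 6 probe sets that disagreed in direction. Its probe set 11730723_a_at read 6.39, 6.38, 6.66 and 6.40 in Aldrin-exposed cells, against 5.73, 6.26, 5.96 and 6.40 in Non-exposed cells. The fourth Non-exposed array lay among the Aldrin-exposed ones, and the other 3 Non-exposed arrays were lower. Here the log2 fold change was 0.37 (standard error 0.15, 95% interval 0.041 to 0.70), with adjusted p = 1 from limma and p = 0.0857 by the exact permutation test. The probe set 11730720_a_at read 6.59, 6.42, 6.17 and 6.64 in Aldrin-exposed cells, against 6.69, 6.56, 7.06 and 6.39 in Non-exposed cells, a log2 fold change of -0.22 (95% interval -0.57 to 0.13), which was -0.090 without Non-exposed replicate 3 and -0.093 with the GC background covariate. The remaining 4 ran from -0.021 to 0.087, and their levels from 4.43 to 7.01. All 6 lay below the array median on every array.

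**Figure D2:**
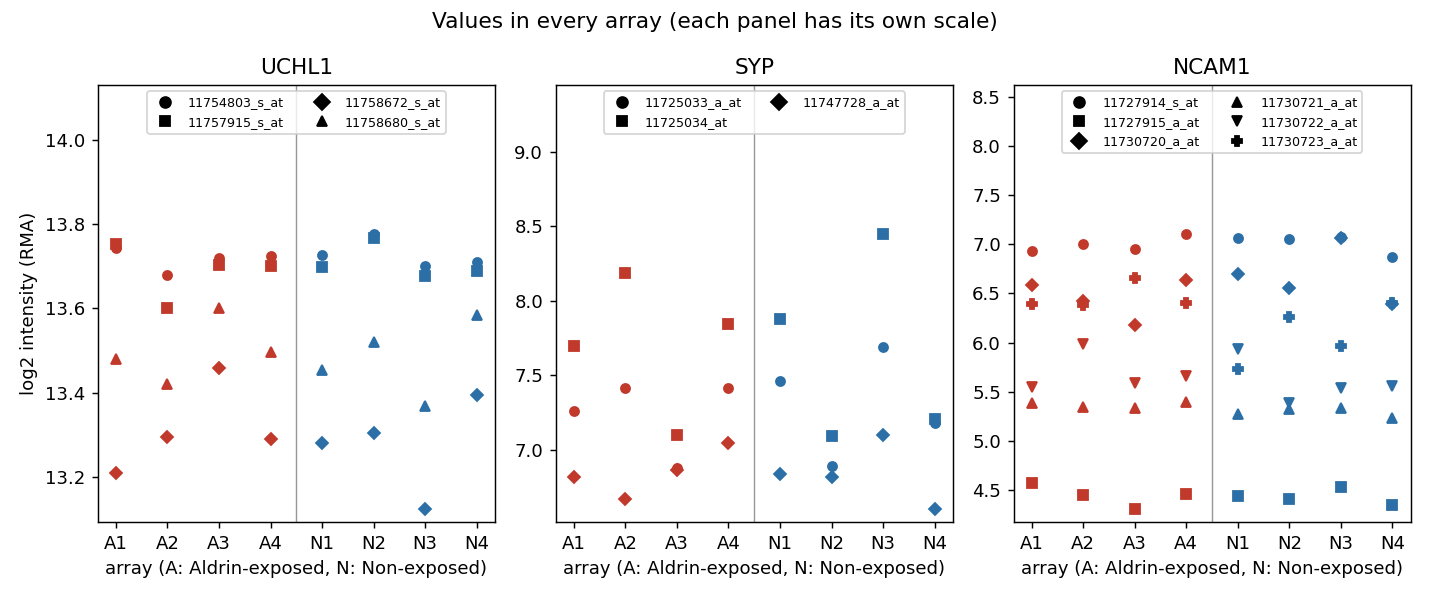
Log2 intensity (y axis, a separate scale in each panel) of every UCHL1, SYP and NCAM1 probe set on each array (x axis), with Aldrin-exposed arrays in red at the left and Non-exposed arrays in blue at the right of each panel. UCHL1 stays between 13.12 and 13.78, while the SYP probe set 11725034_at spans 1.35 units over the 8 arrays.

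INSM1 and NTS, a transcription factor and a secreted peptide, read at the bottom of the arrays. INSM1 (chr20:20368104-20370949) read 4.40, 4.49, 4.43 and 4.31 in Aldrin-exposed cells, against 4.41, 4.27, 4.36 and 4.27 in Non-exposed cells, at a mean percentile of 5.37. The ranges overlapped (log2 fold change 0.080, 95% interval -0.087 to 0.25, exact permutation p = 0.171). NTS (chr12:85874295-85882992) had its probe set 11719684_a_at at 4.04, 3.79, 3.83 and 3.88 in Aldrin-exposed cells, against 3.91, 3.94, 3.94 and 3.91 in Non-exposed cells. That is percentile 0.591, the lowest of the panel, and close to the 3.56 to 3.72 of the most GC-poor background control. The other NTS probe set, 11719685_at, read 4.29, 4.56, 4.21 and 4.32 in Aldrin-exposed cells, against 4.35, 4.31, 4.14 and 4.14 in Non-exposed cells (log2 fold change 0.11, 95% interval -0.11 to 0.33). Its 2 probe sets differed in sign, and in neither did the conditions separate.

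The comparison across the panel asked whether chronic exposure to Aldrin moved any of these markers. None of the 25 probe sets passed limma's adjusted threshold of 0.05, where 0.00203% of all probe sets did, a single probe set of the peroxidase gene PXDN. At an unadjusted limma p under 0.05 there was 1 of 25, the NCAM1 probe set 11730723_a_at, where 3.07% of all probe sets had such a p. A test with unequal variances gave 1 as well, where 2.77% did, but it was a different probe set, CHGB 11717474_a_at. No member probe set was free of overlap between the conditions, as 1.99% of all probe sets were. The mean was lower in Aldrin-exposed cells for 14 and higher for 11, where 51.8% of all probe sets had the lower mean. Their median log2 fold change was -0.018, beside -0.0049 over all probe sets, and the median absolute log2 fold change was 0.050, beside 0.074. For the single probe sets, 4 against 4 arrays allow no permutation p below 0.0286. With a median width of 0.37 log2 units, the 95% intervals are the limit on what these arrays could show for a marker.

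**Figure D3:**
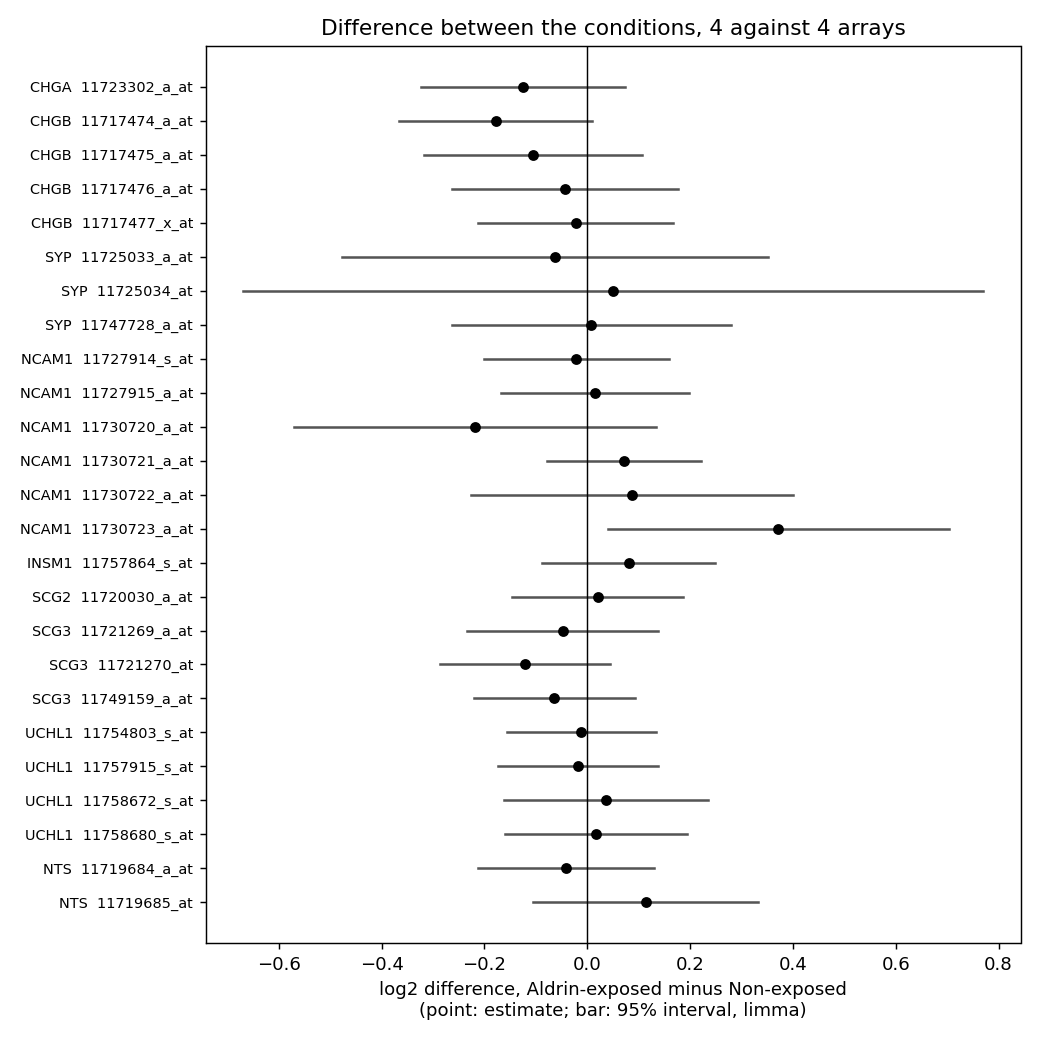
Log2 difference of Aldrin-exposed minus Non-exposed cells (x axis) for each of the 25 probe sets (rows), with the estimate as a point and its 95% interval from limma as a bar. The interval leaves out 0 in 1 probe set of NCAM1, and the SYP probe set 11725034_at has the widest, -0.67 to 0.77.

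Genes that work with the markers were taken from 9 lists, of whose 97 genes 88 had a probe set, 235 in all. None of the 235 passed. An unadjusted limma p under 0.05 was found in 6 (2.55%, beside 3.07% of all probe sets), and 5 had no overlap (2.13%, beside 1.99% of all). Their median log2 fold change was -0.0065, with 109 higher and 126 lower in Aldrin-exposed cells. REST, the repressor itself, read 10.85 ± 0.23 in Aldrin-exposed cells, against 10.96 ± 0.21 in Non-exposed cells (SD, n = 4), at percentile 85.1, and of its partners HDAC1 and HDAC2, histone deacetylases, read at percentiles 95.5 and 95.3 and the scaffold RCOR1 at 79.5. SRRM4, a splicing factor that in neurons yields a REST isoform of reduced repressor activity, read at percentile 39.9. Of 9 genes of this list 6 had their highest probe set above the array median, 10 probe sets were higher in Aldrin-exposed cells and 9 lower, and the median log2 fold change was 0.019.

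By the highest probe set of each gene, transcription factors of neuroendocrine and neural cells other than INSM1 mostly read below the array median. They ran from percentile 8.72 to 55.6, each above the 5.37 of INSM1. Of 12 measured genes 1 lay above the median, MYCN, at 8.46 ± 0.23 in Aldrin-exposed cells, against 8.57 ± 0.20 in Non-exposed cells. Only its brightest probe set did so, and the others of MYCN stood at percentiles 36.8, 6.92 and 4.26. MYT1, a zinc finger factor of neural progenitors, came next, at 7.76 ± 0.22 in Aldrin-exposed cells, against 7.99 ± 0.22 in Non-exposed cells (SD, n = 4). The list divided into 12 probe sets higher and 15 lower in Aldrin-exposed cells, with a median log2 fold change of -0.0043.

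Among genes of granule processing, the highest probe sets were those of PAM, which amidates peptides, at percentile 93.5, and SLC18A2, a vesicular monoamine transporter, at 72.3. The other SLC18A2 probe set stood below the median, at percentile 41.4, and 8 of 13 measured genes were not above the median. Probe sets of that list were higher in Aldrin-exposed cells in 11 cases and lower in 16 (median log2 fold change -0.032). Among genes of vesicle docking, SYPL1, a relative of synaptophysin, read 11.42 ± 0.26 in Aldrin-exposed cells, against 11.42 ± 0.21 in Non-exposed cells (SD, n = 4), and UNC13B, a vesicle priming factor, stood at percentile 85.3. This list was higher in 30 and lower in 16 probe sets (median 0.033), where 51.8% of all probe sets were lower.

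Neurotensin receptors read low, as neurotensin did, with NTSR1 at 4.82 ± 0.13 in Aldrin-exposed cells, against 4.95 ± 0.10 in Non-exposed cells and NTSR2 at 4.97 ± 0.065 in Aldrin-exposed cells, against 4.88 ± 0.14 in Non-exposed cells (SD, n = 4). The peptidases that cleave neurotensin, THOP1 and NLN, read at percentiles 90.3 and 87.8. In this list 7 probe sets were higher and 8 lower in Aldrin-exposed cells (median -0.040). Another peptide gene, GAL, encoding galanin, read high at 12.26 ± 0.22 in Aldrin-exposed cells, against 12.19 ± 0.26 in Non-exposed cells, and ADM, adrenomedullin, stood at percentile 59.5. The other 8 of 10 peptide genes were not above the median, and the list had 7 probe sets higher and 11 lower (median -0.032). VIP, at 4.38 in Aldrin-exposed cells, against 4.28 in Non-exposed cells, had no overlap but did not pass.

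Partners of NCAM1 were led by PRNP, the prion protein, and FGFR1, a growth factor receptor, at percentiles 90.0 and 89.6, whereas the polysialyltransferases ST8SIA2 and ST8SIA4 read at 16.5 and 8.45. NCAM2 had no overlap in 1 probe set (log2 fold change -0.12, adjusted p = 1 from limma), and the list had 12 probe sets higher and 15 lower in Aldrin-exposed cells (median -0.0093). The ubiquitin list held, besides UCHL1's relative UCHL3 at percentile 86.7, the ubiquitin gene UBB at 99.7. Its 12 probe sets divided evenly, 6 and 6 (median 0.0024).

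Other genes used as neuroendocrine markers divided by level, with 7 of 15 above the array median and 8 not above it. The highest probe sets of the 15 genes ran from percentile 10.5 to 97.4, with a median of 43.1. AURKA, TUBB3, EZH2, ENO2 and DLL3, named next, are all among the 7. AURKA, a mitotic kinase that stabilises MYCN, read 12.64 ± 0.11 in Aldrin-exposed cells, against 12.64 ± 0.11 in Non-exposed cells (SD, n = 4), TUBB3, a neuronal tubulin, stood at percentile 94.8, the methyltransferase EZH2 at 89.3, the neuronal enolase ENO2 at 82.2 and the Notch ligand DLL3 at 78.9. In this list 30 probe sets were lower in Aldrin-exposed cells and 14 higher (median -0.036), where 51.8% of all probe sets were lower. Of its 44 probe sets 3 had no overlap, where 1.99% of all had none. An unadjusted limma p under 0.05 was found in 3 of the 44, where 3.07% of all probe sets had such a p. KIT, a receptor tyrosine kinase, had no overlap in 2 of its probe sets. They read 5.01 ± 0.12 in Aldrin-exposed cells, against 5.26 ± 0.13 in Non-exposed cells, and 4.35 ± 0.0059 in Aldrin-exposed cells, against 4.69 ± 0.15 in Non-exposed cells. These levels are low, within the 4.17 to 5.58 of the background controls with 12 to 15 G or C. ELAVL4, a neuronal RNA-binding protein, had no overlap in 1, with a log2 fold change of 0.062. Each had adjusted p = 1 from limma.

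**Figure D4:**
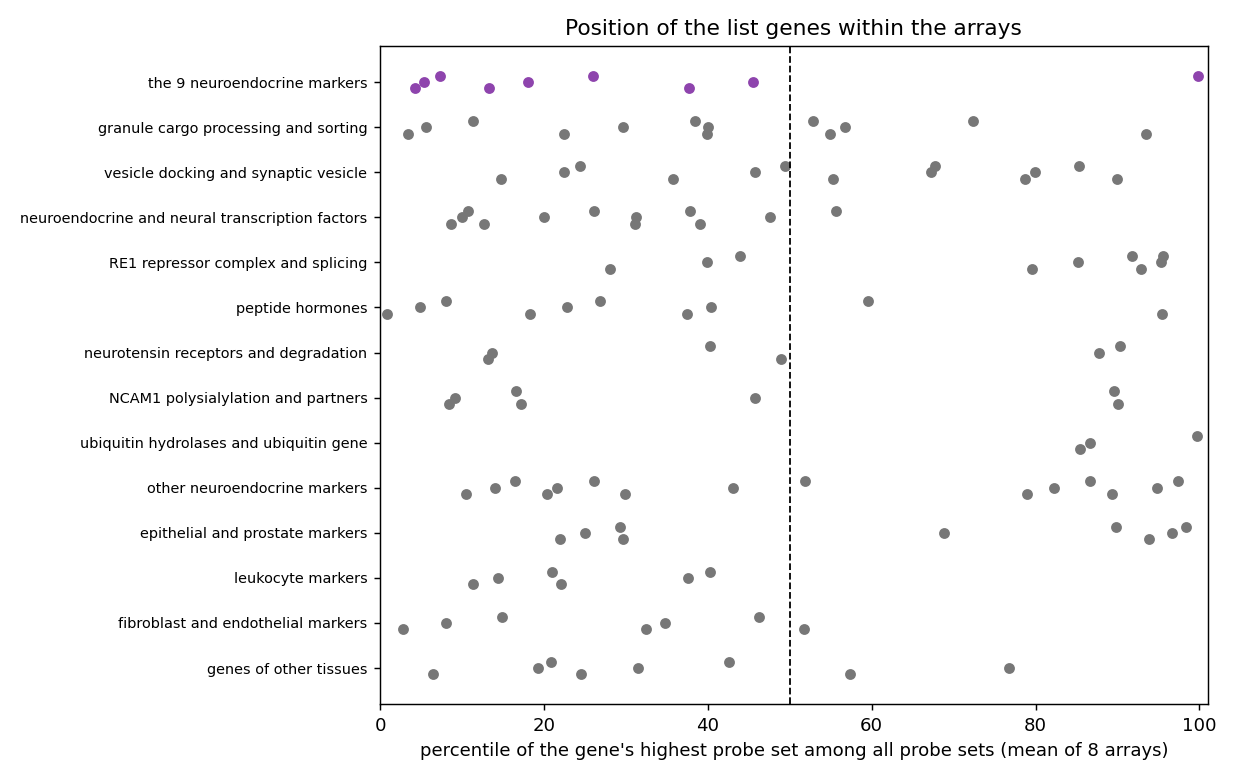
Position of each list gene within the arrays (x axis, percentile of its highest probe set among 49293, mean of 8 arrays; dashed line at 50), with lists as rows and the 9 markers in purple. UCHL1 is at 99.8, and the other 8 markers lie between 4.30 and 45.5.

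The line was checked by its defining markers. The epithelial keratins KRT19 and KRT18 read at percentiles 98.4 and 96.7, and KLK3, prostate-specific antigen, at 22.0. Of 40 epithelial and prostate probe sets 29 were lower in Aldrin-exposed cells, where 51.8% of all probe sets were, and none passed (median log2 fold change -0.093). Of the 40, 1 had no overlap, where 1.99% of all had none. A probe set of CDH1, the epithelial adhesion protein E-cadherin, had no overlap, at 8.17 ± 0.33 in Aldrin-exposed cells, against 8.84 ± 0.25 in Non-exposed cells (SD, n = 4, adjusted p = 1 from limma). Of 6 leukocyte genes none was above the array median, and of 7 fibroblast and endothelial genes 1 was, COL1A1, at percentile 51.8. The mean level of the leukocyte probe sets ran from 5.10 to 5.21 over the Aldrin-exposed arrays and from 5.13 to 5.25 over the Non-exposed arrays. Genes of other tissues reached percentile 76.8, at MBP, so a position above the median is not in itself a sign of lineage. The GC-rich over GC-poor background signal averaged 5.88 ± 0.30 in Aldrin-exposed arrays, against 6.05 ± 0.27 in Non-exposed arrays (SD, n = 4, exact permutation p = 0.429), and no pair of arrays held identical values. Its part in the differences was tested only as a covariate.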

How the data were processed

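Total RNA of DU145 cells was labelled as biotinylated cRNA and hybridised to 1-colour Affymetrix arrays. The authors deposited 1 log2 value for each probe set and array, obtained with RMA. This method subtracts background, forces all arrays to the same distribution and combines probes, so a shift of a whole array is not visible. Its version is not given in the sources used here. The paper names another Affymetrix array type than the platform annotation that the probe sets match. The table holds 49395 probe sets, of which 102 are controls that entered no test. Of the remaining 49293, 44988 have 1 gene, 1832 several and 2473 none. Of the value columns 0 were not used.

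Aldrin-exposed and Non-exposed arrays, 4 each, were compared with limma 3.58.1 in R 4.3.3 (two-sided, Benjamini-Hochberg adjustment over all probe sets, threshold 0.05) and by exact permutation over the 70 assignments of 4 of 8 arrays. The fit was tested on simulated data. The number of arrays limits the precision. Named were all members, the 2 genes of highest level in each list, genes without overlap and the 3 nearest patterns of the most variable member. Other list genes named, such as REST and ENO2, were chosen after their values were seen. Members and lists were chosen with earlier results of these data known. Alternatives were the t-test with unequal variances, a mean-variance trend, array weights, the replicate block, centring, a second quantile normalization, a GC background covariate, a filter on dim probe sets, 1 probe set per gene and each array left out. Promoters are RefSeq windows of 250 bases before to 50 after the start. Python 3.11.15 (pandas 2.3.3, matplotlib 3.10.9) served for sequences and plots.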

Additional observations from a re-analysis of the deposited data

Results flagged for a closer look

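Each condition of each probe set was searched for an array far from the other 3 (Dixon's ratio above its critical value at the 95% level), and 3 of 50 sets of 4 arrays had one, where chance gives about 1 in 20. For NCAM1 11730723_a_at, Aldrin-exposed replicate 3 read 6.66, where the other Aldrin-exposed arrays read 6.38 to 6.40. For NCAM1 11727914_s_at, Non-exposed replicate 4 read 6.88, where the others read 7.05 to 7.08. For CHGB 11717475_a_at, Aldrin-exposed replicate 2 read 4.77, where the others read 4.90 to 4.91.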

How the results depend on the processing

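None of the 25 marker probe sets passed in any fit that kept them all, and none of the 6 left after removal of dim probe sets passed. The alternative of 1 probe set per gene was run only for the count of lower means. Over all probe sets, the 1 that passed was lost (count 0) by the t-test with unequal variances, with the GC background covariate, after removal of dim probe sets and with the replicate block, and leaving out 1 array gave 0 to 1, with 1 only without Non-exposed replicate 2 or without Non-exposed replicate 4. Same-numbered arrays of the conditions correlated at -0.72 to 0.31 in their deviations, and 0 of 4 Aldrin-exposed arrays correlated best with its own number, so they share only a number. No marker call changed with the replicate block. After removal of dim probe sets 3 of 6 remaining marker probe sets had the lower mean in Aldrin-exposed cells, and with 1 probe set per gene 5 of 9, since fewer were counted. Of 375 recomputed fold changes 341 kept their sign and 34 turned, in 14 probe sets. In none of these 14 was the reported log2 difference above 0.087 in size. The t-test with unequal variances, the mean-variance trend and the replicate block leave the fold change itself as it was. Their values are counted among the 341 but could not turn, and centring moved each fold change only slightly. With array weights the log2 fold change was 0.0036 for CHGB 11717477_x_at, 0.079 for SYP 11725033_a_at, -0.018 for UCHL1 11758672_s_at, -0.00044 for UCHL1 11758680_s_at and 0.016 for NTS 11719684_a_at. With the GC covariate it was 0.015, 0.064, -0.010 and -0.0081 for the first 4 of these. Examples of values that moved without a change of sign, with the GC covariate and with array weights, were SYP 11725034_at (0.24 and 0.21), SYP 11747728_a_at (0.084 and 0.036), CHGA (-0.063 and -0.056), NCAM1 11730720_a_at (-0.093 and -0.10), NCAM1 11727915_a_at (0.055 and 0.072) and SCG3 11721269_a_at (-0.021 and -0.024). Array weights gave 0.058 for NTS 11719685_at. A second quantile normalization gave 0.00048 for NCAM1 11727914_s_at. The cause was not tested. Leaving out 1 array gave log2 fold changes of -0.087 to 0.036 for CHGB 11717476_a_at, -0.065 to 0.038 for CHGB 11717477_x_at, -0.20 to 0.065 for SYP 11725033_a_at, -0.14 to 0.31 for SYP 11725034_at, and -0.070 to 0.095 for SYP 11747728_a_at. It gave -0.069 to 0.0021 for NCAM1 11727914_s_at, -0.026 to 0.060 for NCAM1 11727915_a_at, -0.010 to 0.20 for NCAM1 11730722_a_at and -0.021 to 0.047 for SCG2. For UCHL1 it gave -0.021 to 0.0045 for 11754803_s_at, -0.039 to 0.011 for 11757915_s_at, -0.014 to 0.077 for 11758672_s_at and -0.021 to 0.051 for 11758680_s_at. Of the probe sets that kept their sign, the ranges were -0.31 to -0.090 for NCAM1 11730720_a_at, -0.16 to -0.033 for CHGB 11717475_a_at, -0.16 to -0.080 for CHGA, 0.043 to 0.16 for NTS 11719685_at, -0.092 to -0.011 for NTS 11719684_a_at and -0.085 to -0.0048 for SCG3 11721269_a_at. With 4 arrays a condition and most markers at a low signal, small changes of these genes were not detectable.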
